A study of Macaca mulatta with 7 samples.

Results

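The scavenger and phagocytic receptors described here are 10 genes, MSR1, OLR1, CD36, SCARB1, CLEC7A, ITGAX, AXL, MERTK, TREM2 and TYROBP, taken by symbol from the 29011 gene symbols of single-nucleus RNA sequencing of rhesus monkey (Macaca mulatta) spinal cord. The method barcodes RNA nucleus by nucleus and counts each tagged molecule once, by its unique molecular identifier (UMI). The series holds 7 libraries, with 1 library in each group, to follow spared lumbar tissue far below a complete spinal cord injury over time. Intact, untreated cord gave a cervical, a thoracic and a lumbar library, all from an adult of 5 years, and by the study's account from 1 animal. The other 4 libraries were lumbar cord of injured adults, below a complete transection of the thoracic cord, collected at 7 days post injury (dpi; age 7 years), 14 dpi (7 years), 30 dpi (6 years) and 6 months post injury (mpi; 6 years). By the study's methods the tissue was freed of meninges, and the labels name no genetic change or drug. Each injured time point rested on 1 animal, so that time, animal, age and library preparation cannot be told apart, and every interval below is a 95% interval that covers counting error only.

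Scavenger receptors take up modified lipoproteins, dying cells and debris. In the central nervous system they are best known in microglia and macrophages, the phagocytes that clear myelin and dead cells after injury. MSR1, OLR1, CD36 and SCARB1 bind lipoproteins and lipids. CLEC7A (dectin-1) is a C-type lectin that recognises beta-glucans, and ITGAX (CD11c) is the alpha chain of a leukocyte integrin that binds complement-coated particles. AXL and MERTK are receptor tyrosine kinases that recognise phosphatidylserine on dying cells through the bridging proteins GAS6 and PROS1. TREM2 is a lipid sensor of myeloid cells and signals through the adaptor TYROBP.

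All 10 genes were found in the RefSeq annotation of the Mmul_10 genome, the build of the deposited counts. OLR1 (chromosome 11, 9533534 to 9552047) and CLEC7A (chromosome 11, 9579997 to 9592761) lie next to each other on the plus strand, with 27949 bases and no annotated gene between them. ITGAX lies on chromosome 20 from 28806444 to 28836024.

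After filtering, 63730 of 69332 barcodes were kept as nuclei, between 5637 and 11002 per library, and library depth ran from 45079131 UMIs at 6 mpi to 150987900 in intact lumbar cord. Any pair of libraries shared at most 36 barcodes. Nuclei were named by class from marker genes, and 20495 were microglia/macrophage-like (called microglia-like below). An earlier form of the naming rule gave 651 microglia-like nuclei at 7 dpi in place of 3469, and 1117 at 6 mpi in place of 2307, so that values at these times depend on the rule. They made up 17.9% of the intact cervical, 22.9% of the thoracic and 19.2% of the lumbar nuclei, and 38.1%, 49.98%, 44.2% and 40.9% at 7, 14 and 30 dpi and 6 mpi. Levels are UMIs of a gene per 1000000 UMIs of the same class and library (CPM), which is no measure for ranking genes of different length, so each gene is compared only with itself. All 8 markers of this class (CSF1R, CX3CR1, P2RY12, P2RY13, C1QA, C1QB, C1QC, LY86) were detected in the summed microglia-like nuclei of each library. Fewer of them reached 10% of nuclei in clusters 12 and 15, described below. Their summed level was 2699 to 3115 CPM in the 3 intact libraries and 1597 to 2121 in the 4 injured ones, and the part of this lower marker level in the results below was not tested.

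In intact cord the receptors were mainly transcripts of microglia-like nuclei. Among classes with at least 50 nuclei in a segment, which leaves out endothelial- and fibroblast-like nuclei among others, microglia-like nuclei held the highest level of 7 of the 10 genes in each of the 3 intact segments. With each nucleus named alone there were 6 such genes, since MSR1 was then highest in endothelial-like nuclei of thoracic cord. With the segments summed, MSR1 was at 115 CPM there (interval 111 to 119) against 7.33 in T cell-like nuclei, the next class, and OLR1 at 359 against 9.16. CLEC7A was at 229 CPM against 7.998 in fibroblast-like nuclei, TREM2 at 18.0 against 0.142 in astrocyte-like nuclei and TYROBP at 84.1 against 22.0 in T cell-like nuclei. For each of these 5 genes the interval of the microglia-like level was apart from that of the next class. Below that, the order of the other classes was mostly not resolved, since the small classes rested on few UMIs.

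Over all 7 libraries, microglia-like nuclei gave 88.3% to 97.7% of a library's MSR1 UMIs, 87.9% to 96.3% for OLR1, 85.8% to 97.5% for CLEC7A and 84.1% to 97.7% for TREM2. Their share was 79.4% to 88.1% for TYROBP, 73.6% to 96.3% for ITGAX, 72.2% to 95.6% for MERTK and 68.4% to 92.3% for AXL. The exceptions were SCARB1, with 8.504% to 36.6% of its UMIs in microglia-like nuclei, and CD36. Of the CD36 UMIs 3 of 15, 6 of 44 and 2 of 29 were in microglia-like nuclei of the intact segments, against 62 of 76, 79 of 89, 351 of 377 and 21 of 30 after injury. As a gauge of free RNA, the 8 microglia markers stood in oligodendrocyte-like nuclei at a median of 0.295% to 1.67% of their microglia-like level. MSR1, OLR1, CLEC7A, ITGAX and TREM2 did not lie above the range of these markers there in any of the 7 libraries. SCARB1 lay above that range in 7 of 7 libraries in oligodendrocyte-, OPC- (oligodendrocyte precursor), astrocyte- and neuron-like nuclei alike. TYROBP lay above the range of the markers in neuron-like nuclei in 6 of 7 libraries. Its level there was 1.07% to 2.65% of its microglia-like level over all libraries.

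**Figure D1:**
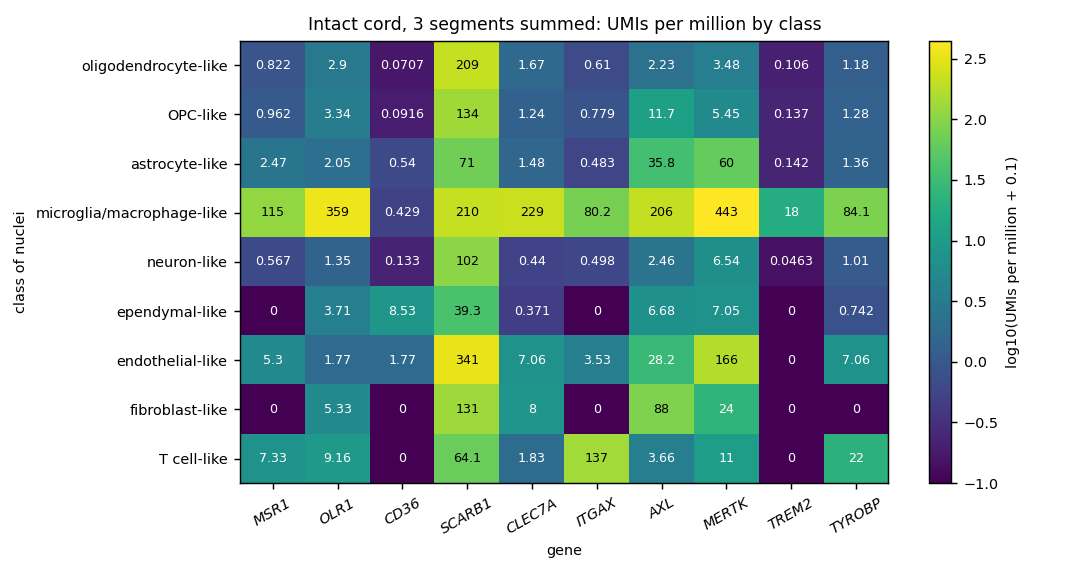
Levels of the 10 genes (columns) by class of nuclei (rows) in intact cord with the 3 segments summed. Numbers in the cells are CPM and the colour is log10(CPM + 0.1). Microglia/macrophage-like nuclei are brightest for most genes, with SCARB1 spread over many classes (341 in endothelial-like, 210.4 in microglia-like and 209 in oligodendrocyte-like nuclei) and ITGAX also at 137 in T cell-like nuclei.

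Besides TYROBP, with its T cell-like level given above, the other 5 genes had further sources. SCARB1, the receptor for high-density lipoprotein, reached 341 CPM in endothelial-like nuclei (interval 294 to 392, 115 nuclei), and the levels of microglia-like nuclei (210.4) and oligodendrocyte-like nuclei (209) could not be separated within their intervals. OPC-like nuclei followed at 134.2. ITGAX was at 137 CPM (108 to 172) in 158 T cell-like nuclei and at 80.2 (76.8 to 83.8) in microglia-like nuclei. MERTK was at 443 CPM in microglia-like, 166 in endothelial-like and 60.04 in astrocyte-like nuclei, and these 3 levels were apart from each other. AXL was at 206 CPM in microglia-like nuclei, 88.0 in 65 fibroblast-like nuclei and 35.8 in astrocyte-like nuclei. CD36, the fatty acid translocase, was scarce in intact cord, with its highest level, 8.53 CPM from 23 UMIs, in ependymal-like nuclei, and its interval (5.41 to 12.8) overlapped that of the next class.

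After injury, MSR1, ITGAX and, for a time, CLEC7A rose in microglia-like nuclei of lumbar cord. A gene was called higher or lower in an injured library when it lay at least 2-fold from intact lumbar cord on the scale of CPM + 1 and also outside the range of the 3 intact libraries. Genes with a mean of at least 5 CPM over the 7 libraries were assessed, which were 10330 genes and 9 of the 10 members, all except CD36. At 7 dpi 2 of the 9 were called higher (MSR1, ITGAX), against 7.51% of all genes assessed. At 14 dpi there were 3 of 9 (MSR1, CLEC7A, ITGAX) against 5.38%, and at 30 dpi the same 3 genes against 7.48%. At 6 mpi there were 2 of 9 (MSR1, ITGAX) against 11.2%. No member was called lower, where 4.93%, 3.8%, 5.28% and 4.32% of all genes were, so that nothing is read from the lack of such calls.

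At any fold, 5, 7, 7 and 5 of the 9 genes lay above the intact range at 7, 14 and 30 dpi and 6 mpi, against 43.7%, 30.3%, 34.5% and 53.2% of all genes. Those below it were 1 of 9 at 7 dpi (SCARB1), 14 dpi (TYROBP) and 6 mpi (CLEC7A) and 0 at 30 dpi, against 37%, 45.8%, 42.7% and 27.4% of all genes. The median log2 ratio of the 9 genes was 0.63, 0.82, 0.96 and 0.48 on the CPM + 1 scale, beside 0.05, -0.08, -0.05 and 0.18 over all genes assessed. The ratios at 6 mpi are therefore to be read against a shift of 0.18 of all genes.

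**Figure D2:**
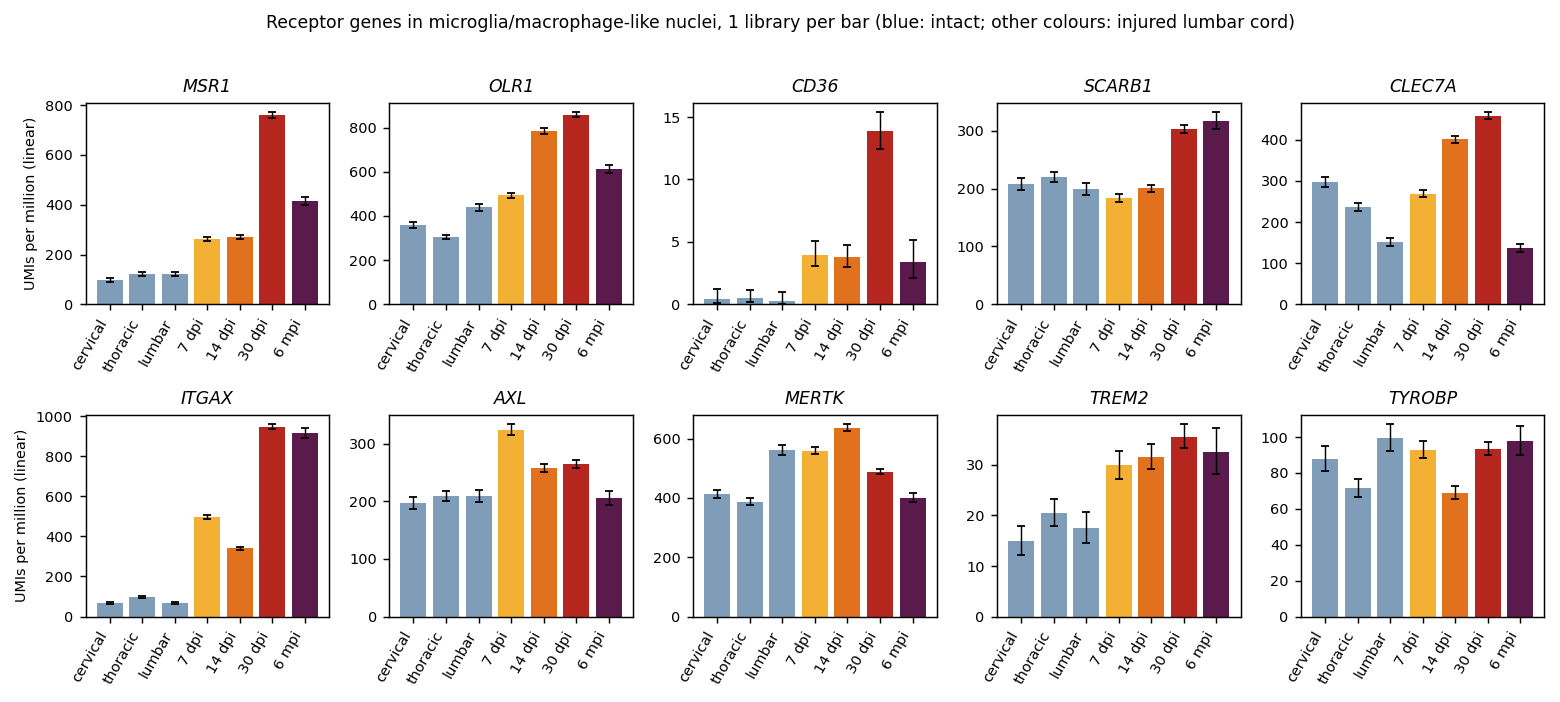
Level of each of the 10 genes in microglia/macrophage-like nuclei (y axis, CPM, linear from 0), with 1 bar per library and 95% counting intervals. Blue bars are the 3 segments of intact cord and the other bars are injured lumbar cord at 7, 14 and 30 dpi and 6 mpi. MSR1 (263 to 761) and ITGAX (342 to 946) stand above all intact bars in all 4 injured libraries, whereas TYROBP and SCARB1 do not.

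MSR1, the class A macrophage scavenger receptor, was at 97.4, 121 and 122 CPM in microglia-like nuclei of intact cervical, thoracic and lumbar cord and at 263, 269.7, 761 and 416 CPM at 7, 14 and 30 dpi and 6 mpi. All 4 injured libraries lay above all 3 intact ones. Relative to intact lumbar cord this was 2.16-fold, 2.21-fold, 6.24-fold and 3.41-fold higher in time order, with log2 values of 1.11 (1.01 to 1.22), then 1.15 (1.04 to 1.25), 2.64 (2.55 to 2.74) and 1.77 (1.66 to 1.88). The levels at 7 and 14 dpi differed by less than their counting error (log2 0.04, -0.02 to 0.09). The step from 14 to 30 dpi was 1.496 on the log2 scale (1.45 to 1.54), and the level at 6 mpi was again lower than at 30 dpi (-0.87, -0.93 to -0.81). The calls at 7 and 14 dpi lay close to the 2-fold mark and were lost when each nucleus was named alone (log2 0.82 and 0.91) and when nuclei were thinned before summing (0.96 and 0.95). At 6 mpi the ratio was 1.05 under the earlier naming rule.

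The share of microglia-like nuclei with an MSR1 UMI moved with the level. After each nucleus was thinned to 1000 UMIs, to remove differences of depth, it was 8.18%, 10.2% and 9.40% in the intact segments and 16.5%, 17.2%, 39.1% and 26.7% after injury. Without thinning the shares were 22.6% to 27.7% and 38.9%, 42.2%, 77.9% and 46.3%, at median depths of 2390 to 5814 UMIs. In neuron-like nuclei, taken as a class without the gene, the thinned share was at most 0.628%, at unthinned median depths of 21446 to 39173 UMIs.

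OLR1, the lectin-like receptor for oxidised low-density lipoprotein, was at 360.1, 305 and 439 CPM in intact cord and at 494, 784, 858 and 613 CPM after injury. All 4 injured libraries lay above the intact range, but none reached the 2-fold mark. In time order, the log2 ratio to intact lumbar cord was 0.17 (0.11 to 0.23), 0.84 (0.78 to 0.89), 0.97 (0.91 to 1.02) and 0.48 (0.41 to 0.55). Intact lumbar cord was itself higher than intact thoracic cord by 0.53 on the log2 scale (0.46 to 0.60), a gap wider than the ratio at 7 dpi. OLR1 was carried by many nuclei, with thinned shares of 22.8% to 31.0% in intact cord and 37.7%, 48.2%, 52.3% and 39.1% after injury.

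CD36 was nearly absent from microglia-like nuclei of intact cord, with 3, 6 and 2 UMIs (0.421, 0.538 and 0.273 CPM), and rested on 62, 79, 351 and 21 UMIs (3.96, 3.81, 13.9 and 3.39 CPM) after injury. The 4 injured libraries lay above the 3 intact ones. Its log2 ratios to intact lumbar cord were 3.86 (1.95 to 6.94), 3.80 (1.90 to 6.87), 5.67 (3.80 to 8.72) and 3.64 (1.60 to 6.77). These intervals are wide because the reference holds 2 UMIs, and CD36 was under the level filter for a call. A CD36 UMI was found in 0.0960% to 0.121% of microglia-like nuclei of intact cord and in 0.980%, 0.934%, 3.16% and 0.737% after injury without thinning, and in at most 0.726% in any library after thinning.

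SCARB1 was at 207, 219 and 199.8 CPM in microglia-like nuclei of intact cord and at 184, 200.5, 304 and 318 CPM after injury. It lay below the intact range at 7 dpi, inside it at 14 dpi and above it at 30 dpi and 6 mpi, with log2 values against intact lumbar cord of -0.12 (-0.21 to -0.02), 0.01 (-0.08 to 0.09), 0.60 (0.52 to 0.68) and 0.67 (0.57 to 0.77). No library reached 2-fold. In oligodendrocyte-like nuclei SCARB1 was at 215, 209 and 200.1 CPM in intact cord and at 228, 197, 217 and 175 CPM after injury, all within 0.20 on the log2 scale of intact lumbar cord. The late rise in microglia-like nuclei depended on which nuclei were included. Under the earlier rule for naming clusters the log2 ratio at 6 mpi was -0.26 in place of 0.67, and without the nuclei of 1 cluster (cluster 12, described below) it was 0.11 at 30 dpi in place of 0.60. The difference between the classes was not tested.

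**Figure D3:**
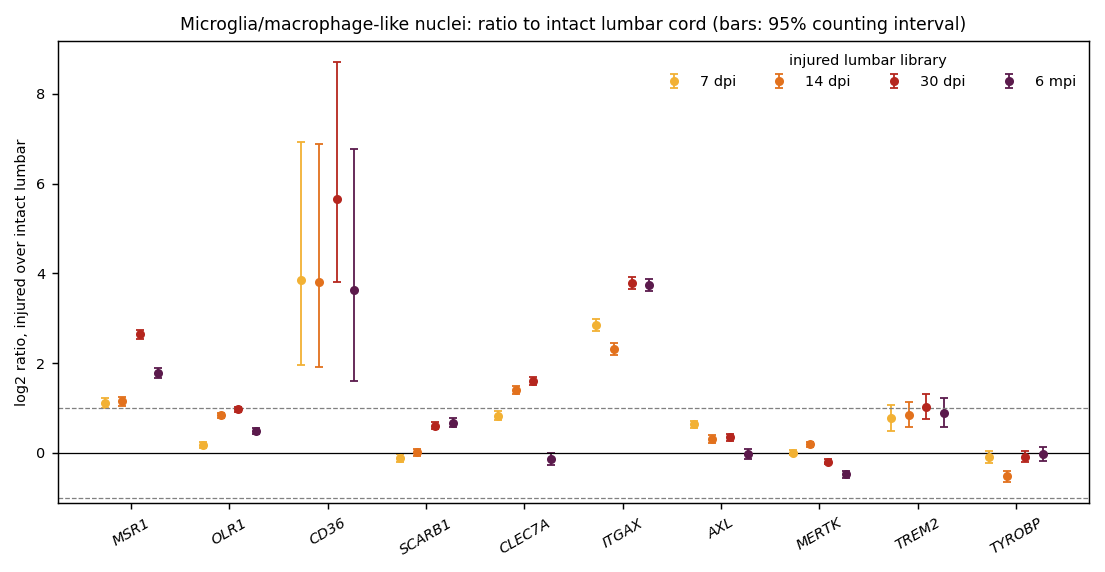
Log2 ratio of each gene in microglia/macrophage-like nuclei of the 4 injured lumbar libraries to intact lumbar cord (y axis), with 95% counting intervals. Dashed lines mark 2-fold higher and lower. ITGAX (2.31 to 3.78) and MSR1 (1.11 to 2.64) lie above the upper line at all 4 times, CLEC7A at 14 and 30 dpi, TREM2 at 30 dpi (1.03), CD36 with wide intervals, and TYROBP, MERTK and AXL between -0.53 and 0.63.

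ITGAX showed the largest rise of the 9 genes assessed at each time. It was at 66.3, 96.6 and 68.9 CPM in microglia-like nuclei of intact cervical, thoracic and lumbar cord and at 497, 342, 946 and 916 CPM at 7, 14 and 30 dpi and 6 mpi. The lowest injured library lay over 3 times above the highest intact one. In time order it was 7.21-fold, 4.96-fold, 13.7-fold and 13.3-fold above intact lumbar cord, or 2.85 (2.72 to 2.98), 2.31 (2.18 to 2.44), 3.78 (3.65 to 3.91) and 3.73 (3.60 to 3.87) on the log2 scale. The call was kept under each alternative run, but the size was not: at 6 mpi it was 2.36 under the earlier naming rule, and at 30 dpi 2.11 without the nuclei of cluster 12 (described below). The course was not steady: the level at 14 dpi was lower than at 7 dpi (log2 -0.54, -0.59 to -0.49), and those at 30 dpi and 6 mpi differed by only -0.05 (-0.09 to -0.01). The thinned share of nuclei with an ITGAX UMI was 5.39%, 8.44% and 5.23% in intact cord and 31.1%, 20.8%, 41.5% and 45.6% after injury, against at most 1.02% in neuron-like nuclei.

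CLEC7A rose for a limited time. It was at 297, 237 and 152 CPM in microglia-like nuclei of intact cervical, thoracic and lumbar cord and at 269, 401, 458 and 137 CPM after injury. The value at 7 dpi lay inside the intact range, those at 14 and 30 dpi lay above it and that at 6 mpi lay below it. Against intact lumbar cord the log2 ratio was 0.82 (0.73 to 0.92), 1.40 (1.31 to 1.495), 1.60 (1.51 to 1.69) and -0.15 (-0.28 to -0.02). Intact segments also differed, with lumbar lower than cervical cord by 0.97 on the log2 scale (interval of the ratio -1.08 to -0.87). This gap was wider than the ratio at 7 dpi and narrower than those at 14 and 30 dpi. With the mean of the 3 intact libraries as the reference, the ratio was 0.81 at 14 dpi, where CLEC7A was then no longer called higher, and 1.00 at 30 dpi, where it was. Between 30 dpi and 6 mpi the level dropped by 1.74 on the log2 scale (-1.84 to -1.64).

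OLR1 and CLEC7A, the neighbours on chromosome 11, were both highest at 30 dpi, as were MSR1, CD36, ITGAX and TREM2 on other chromosomes. They parted at 6 mpi, when OLR1 stayed above the intact range and CLEC7A lay below it. The thinned share of nuclei with a CLEC7A UMI followed the level, at 19.2%, 16.6% and 10.7% in intact cord and 22.2%, 25.8%, 31.1% and 9.15% after injury. In neuron-like nuclei it was at most 0.461%.

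The TAM receptor kinases changed less. AXL was at 197, 209 and 209 CPM in microglia-like nuclei of intact cord and at 324, 258, 265 and 206 CPM after injury. It lay above the intact range at 7, 14 and 30 dpi, with log2 ratios of 0.63 (0.55 to 0.72), 0.30 (0.22 to 0.39) and 0.34 (0.26 to 0.42), and inside it at 6 mpi (-0.02, -0.13 to 0.08). Under the earlier naming rule the ratio at 7 dpi was 0.10. That rule kept 651 microglia-like nuclei at 7 dpi, of which 438 were in the dividing cluster 24 (described below), so the 2 values describe different mixtures of nuclei. The intact segments agreed within 0.09 on the log2 scale for AXL. MERTK was at 413, 386 and 560.3 CPM in intact cord and at 559, 636, 488 and 401 CPM after injury. Only the library at 14 dpi lay outside the intact range (log2 0.18, 0.13 to 0.23), and at 6 mpi the ratio to intact lumbar cord was -0.48 (-0.56 to -0.41) with a level inside the range.

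Both kinases were also measured in astrocyte-like nuclei, where AXL stood at 16.5% to 40.5% of its microglia-like level and above the range of the microglia markers in 7 of 7 libraries. AXL was at 37.5, 34.4 and 37.2 CPM in astrocyte-like nuclei of intact cervical, thoracic and lumbar cord and at 131, 55.4, 56.6 and 61.2 CPM at 7, 14 and 30 dpi and 6 mpi. All 4 injured libraries lay above the intact ones. At 7 dpi AXL was called higher (log2 1.82, 1.48 to 2.15, from 104 UMIs in 98 nuclei), as were 12.5% of the 11285 genes assessed in this class. Later the log2 ratio was 0.58 to 0.72 and AXL was not called, where 4.31%, 5.72% and 11.6% of genes were. MERTK was at 66.4, 40.8 and 99.0 CPM in these nuclei of intact cord and at 46.7, 54.8, 36.5 and 61.2 CPM after injury. It was called lower at 30 dpi only (log2 -1.44, -1.85 to -1.06), as were 3.6% of genes (5.45%, 2.37% and 5.01% at 7 dpi, 14 dpi and 6 mpi), and the other 3 libraries lay inside an intact range of more than 2-fold. MERTK lay above the range of the microglia markers in astrocyte-like nuclei of the 3 intact libraries and at 14 dpi, and inside it in the other 3 libraries.

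The other calls in astrocyte-like nuclei rested on few UMIs and on genes that passed the level filter only through the injured libraries, which favours higher calls. ITGAX was called higher at all 4 times, OLR1 at 7 dpi, 30 dpi and 6 mpi, and MSR1 at 30 dpi and 6 mpi, each on 7 to 33 UMIs. In all 4 injured libraries these 3 genes did not lie above the range of the microglia markers in astrocyte-like nuclei. The median of those markers there went from 0.404% to 0.874% of their microglia-like level in intact cord to 2.12% to 6.93% after injury, and its part in these calls was not tested.

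In OPC-like nuclei both kinases were called higher at 3 times. AXL was at 13.5, 11.2 and 10.8 CPM in intact cervical, thoracic and lumbar cord and at 31.4, 23.7, 17.1 and 24.8 CPM after injury, and it was called at 7 dpi, 14 dpi and 6 mpi. It lay above the range of the microglia markers in 6 of 7 libraries. MERTK was at 4.69, 6.79 and 3.13 CPM in intact cord and at 4.31, 8.30, 8.69 and 15.1 CPM after injury, and it was called higher at 14 dpi, 30 dpi and 6 mpi, from 14 to 32 UMIs. In OPC-like nuclei MERTK lay above the range of the microglia markers in 0 of 7 libraries. ITGAX had 0 UMIs in OPC-like nuclei of intact lumbar cord, and in each injured library it lay inside that range. ITGAX and MERTK passed the level filter in this class only through the injured libraries, so that nothing is read from the number of members called. Of the 10517 genes assessed 6.07%, 2.65%, 4.17% and 7.98% were called higher.

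**Figure D4:**
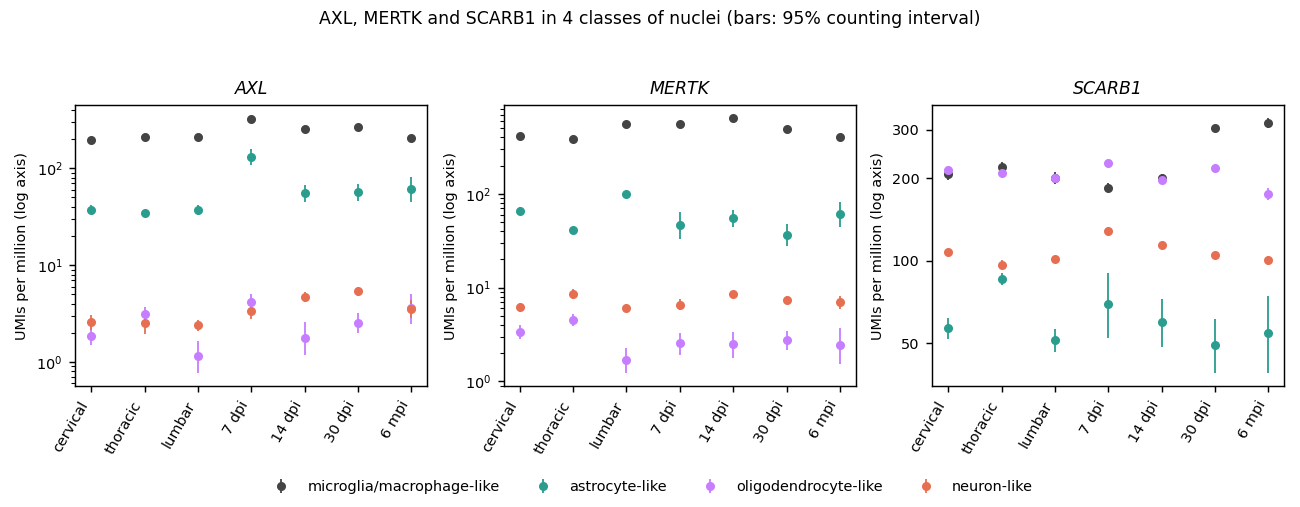
AXL, MERTK and SCARB1 (y axis, CPM, log axis) in microglia/macrophage-, astrocyte-, oligodendrocyte- and neuron-like nuclei of each of the 7 libraries, with 95% counting intervals. AXL in astrocyte-like nuclei peaks at 7 dpi (131), MERTK in astrocyte-like nuclei is lowest at 30 dpi (36.5), and SCARB1 in microglia-like nuclei stands above its level in oligodendrocyte-like nuclei at 30 dpi (304 against 217) and 6 mpi (318 against 175). Without cluster 12 the microglia-like level of SCARB1 at 30 dpi was 215 CPM. Under the earlier naming rule its log2 ratio to intact lumbar cord at 6 mpi was -0.26.

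TREM2 and TYROBP, a receptor and its adaptor, did not move together. TREM2 was at 14.9, 20.4 and 17.5 CPM in microglia-like nuclei of intact cord and at 29.9, 31.5, 35.6 and 32.5 CPM after injury. All 4 injured libraries lay above the intact range. The log2 ratio was 0.78 (0.49 to 1.07), 0.85 (0.58 to 1.14), 1.03 (0.76 to 1.31) and 0.89 (0.57 to 1.23), and on the CPM + 1 scale it was 0.99 at 30 dpi, just short of the 2-fold mark. TYROBP was at 87.8, 71.5 and 99.5 CPM in intact cord and at 92.9, 68.9, 93.5 and 97.8 CPM after injury. It was inside the intact range in 3 of the 4 injured libraries and below it at 14 dpi (log2 -0.53, -0.66 to -0.40). A TREM2 UMI was found in 1.54% to 2.26% of thinned microglia-like nuclei in intact cord and in 2.91%, 3.04%, 3.01% and 3.55% after injury.

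Nuclei with UMIs of several of the receptors were more frequent in all 4 injured libraries than in the 3 intact ones. Such counts rise whenever the shares of single genes rise, and co-occurrence beyond those shares was not tested for them. After thinning to 1000 UMIs, UMIs of at least 2 of the 10 genes were found in 38.5% to 41.0% of microglia-like nuclei of intact cord and in 62.5%, 64.9%, 78.1% and 65.4% at 7, 14 and 30 dpi and 6 mpi. At least 3 were found in 12.8% to 13.7% in intact cord and in 32.3%, 31.0%, 50.9% and 35.8% after injury. In neuron-like nuclei at least 2 were found in at most 1.02%. An ITGAX UMI was seen in 54.7% of nuclei with an MSR1 UMI at 30 dpi (52.1% to 57.2%) and in 33.1% of those without one (31.2% to 35.0%). At 6 mpi these shares were 62.7% and 39.4%.

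The receptors were unevenly spread over the 8 clusters of microglia-like nuclei, which had been formed without the 10 genes among the variable genes. Clusters mostly followed libraries. Cluster 0 held 97.3% to 98.9% of microglia-like nuclei of each intact library, cluster 9 held 82.3% of those at 7 dpi and cluster 24, of dividing nuclei, another 12.6%. Cluster 3 held 89.7% of those at 14 dpi, cluster 11 held 59.2% of those at 30 dpi, and clusters 15 and 17 held 50.2% and 38.6% of those at 6 mpi. Cluster 12 was drawn from several injured libraries, with 6.41% of the class at 14 dpi, 34.6% at 30 dpi and 2.82% at 6 mpi. Microglia markers were weaker in clusters 12 and 15. Of the 8 markers, 6 in cluster 12 and 4 in cluster 15 were found in at least 10% of nuclei, against 8 in cluster 0. The score for this class, defined with the processing, was 0.29 and 0.33, against 0.90 in cluster 0. The earlier naming rule left cluster 15 unnamed as a mixture with astrocytes, and cluster 9 unnamed for leading genes of another class. The values below describe these clusters, without a test.

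In cluster 12 MSR1 was at 1016 CPM at 14 dpi, 1274 at 30 dpi and 1115 at 6 mpi, and ITGAX at 1643, 1891 and 2659 CPM. Within the same libraries the other microglia-like nuclei were at 206, 399.9 and 389 CPM of MSR1 and at 231, 281 and 850.0 CPM of ITGAX. Cluster 12 thus gave 69.2% of the MSR1 UMIs, 82.6% of the ITGAX UMIs and 58.5% of the SCARB1 UMIs of the class at 30 dpi from 34.6% of its nuclei. It also gave 41.1% of the UMIs of AXL, whose CPM was level there, so the share of nuclei is too low a baseline for these shares. CD36 was bound to cluster 12 most closely, with 66 of the 79 UMIs at 14 dpi and 341 of the 351 at 30 dpi, but 3 of the 21 at 6 mpi. The lectin CLEC7A went the other way, at 193 CPM in cluster 12 against 419 elsewhere at 14 dpi, 349 against 535 at 30 dpi and 89.2 against 139 at 6 mpi. AXL was level, at 250.2 against 258, 263 against 266 and 205 against 206 CPM at 14 dpi, 30 dpi and 6 mpi. OLR1 was at 629 against 798, 820.1 against 885 and 1022 against 597 CPM, higher in cluster 12 only at 6 mpi. SCARB1 was at 412 against 182, 429 against 215 and 223 against 321 CPM, so that it was lower in cluster 12 at 6 mpi. The values of cluster 12 at 6 mpi rest on 65 nuclei, with 20 UMIs of CLEC7A, 46 of AXL, 50 of SCARB1 and 229 of OLR1. The lower CLEC7A value at that time therefore carries a large counting error.

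Without the nuclei of cluster 12, a choice made with the data in view, MSR1 was no longer called higher at 14 dpi (log2 0.80) and stood at 1.76 at 30 dpi, while ITGAX stayed called at 1.82 and 2.11. SCARB1 at 30 dpi was then at 0.11 and CD36 at 1.31 at 14 dpi and 1.30 at 30 dpi. At 6 mpi cluster 15 resembled cluster 12 in part, with MSR1 at 572, ITGAX at 1426 and SCARB1 at 460.2 CPM, against 167, 167 and 163 CPM in cluster 17 of the same library. The 2 largest clusters of the library at 6 mpi therefore differed over 3-fold in MSR1 and over 8-fold in ITGAX.

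**Figure D5:**
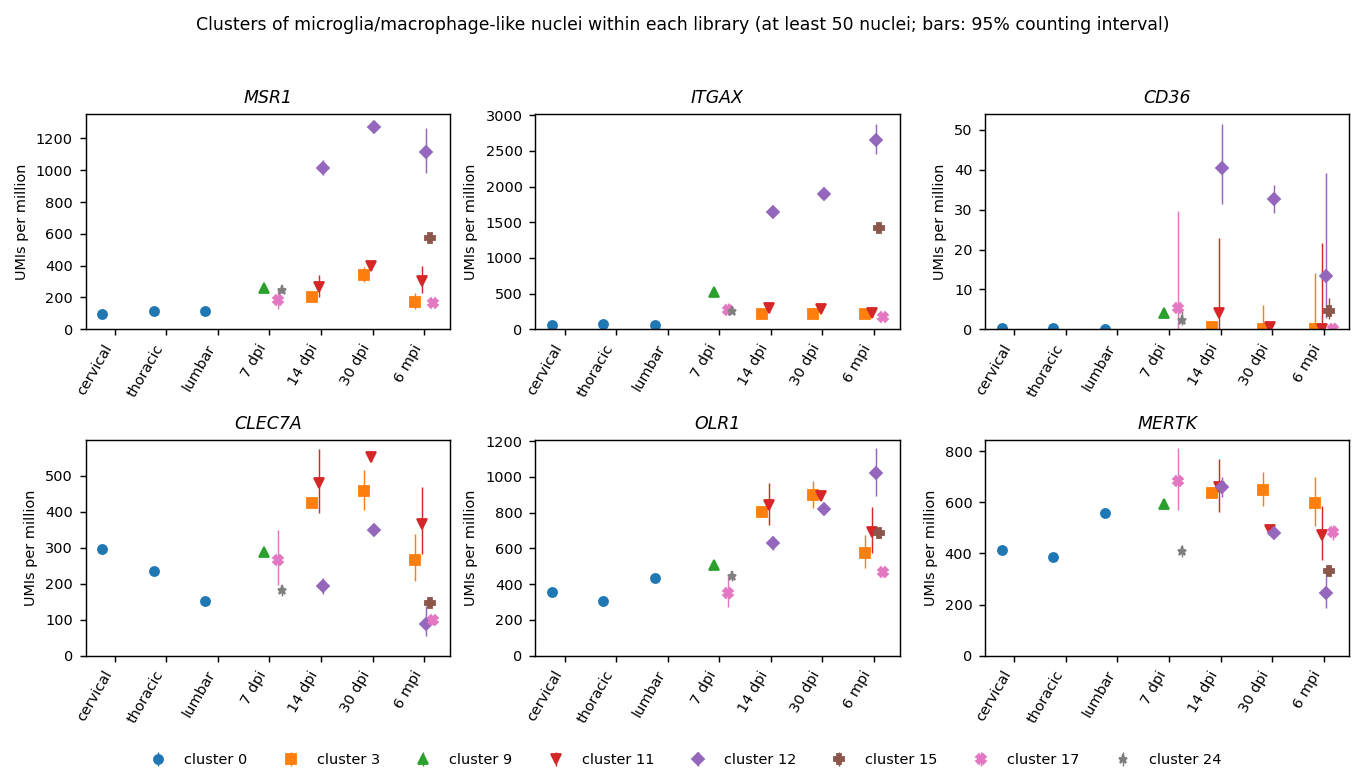
MSR1, ITGAX, CD36, CLEC7A, OLR1 and MERTK (y axes, CPM) in each cluster of microglia/macrophage-like nuclei with at least 50 nuclei in a library (x axis), with 95% counting intervals. Cluster 12 stands apart at 14 and 30 dpi for MSR1 (1016 and 1274), ITGAX (1643 and 1891) and CD36 (40.5 and 32.6), and lies below clusters 3 and 11 for CLEC7A.

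The receptors were also compared nucleus by nucleus by GPNMB, a lysosomal glycoprotein of lipid-laden phagocytes that was chosen with earlier results of these data known. In nuclei thinned to 1000 UMIs, an ITGAX UMI was found in 56.3%, 60.1%, 78.9% and 71.4% of microglia-like nuclei with a GPNMB UMI at 7, 14 and 30 dpi and 6 mpi, against 30.2%, 18.0%, 32.0% and 22.3% of those without. For SCARB1 the shares were 17.5%, 31.2%, 40.2% and 37.2% against 16.5%, 16.6%, 19.8% and 16.1%, so that the gap was absent at 7 dpi. For CLEC7A they were 16.7%, 18.2%, 25.1% and 8.58% against 22.4%, 26.4%, 32.7% and 9.66%, lower with GPNMB at all 4 times, with intervals that were apart at 14 and 30 dpi and overlapped at 7 dpi and 6 mpi. AXL was found in 22.9% and 21.6% at 30 dpi, within each other's interval.

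Across the 7 microglia-like sums, members fell into groups by their course, given here as Pearson's r of log2(CPM + 1) over libraries that share 1 intact animal. MSR1, ITGAX, CD36 and TREM2 were close to each other (0.91 to 0.96), and OLR1 followed them at 0.80 to 0.87. CLEC7A was at 0.32 with MSR1 and 0.21 with ITGAX, MERTK at 0.17 and 0.14. OLR1 and its neighbour CLEC7A were at 0.42 with each other. Among 3800 genes with a mean of at least 50 CPM, the closest to MSR1 were PHKB (0.99), RILPL2 and LIMS1, to ITGAX XPR1 (0.99), RHOQ and PPARG, and to TREM2 NUBPL (0.99), POT1 and RAB7A. The closest to OLR1 were RAB20 (0.97), TLR2 and SGPP1, to AXL CD276 (0.99), ARMH3 and ZNFX1, and to CLEC7A TAF2 (0.94), SIK3 and UVRAG. With 7 points and 3800 candidates such values are a description of likeness only.

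Other genes of these pathways moved in both directions. Of 76 genes on 7 lists, 73 were found and 51 passed the level filter in microglia-like nuclei. Of these 51, 8, 5, 9 and 8 were called higher at 7, 14 and 30 dpi and 6 mpi (15.7%, 9.80%, 17.6% and 15.7%), and 3, 4, 3 and 9 were called lower. The shares over all genes are those given above, 7.51%, 5.38%, 7.48% and 11.2% for higher and 4.93%, 3.8%, 5.28% and 4.32% for lower. FERMT3, ITGB1, ITGAM, COLEC12, SYK, PLCG2, GAS6, PROS1, TYRO3, CLEC4A and CLEC12A are named below by choice after their values were seen. CD68, COLEC12, TREM1 and LILRB4 were under 5 CPM on average in intact cord and passed the level filter only through the injured libraries, which favours higher calls. Nothing is therefore read from the number of list genes called higher beside the share over all genes. Log2 ratios in the following paragraphs are on the CPM + 1 scale against intact lumbar cord.

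Among the partners of ITGAX, its beta chain ITGB2 was called higher at all 4 times, from 34.8 CPM in intact lumbar cord to 121, 74.5, 81.8 and 104 CPM (log2 1.77, 1.08, 1.21 and 1.56). FERMT3, which activates leukocyte integrins, was called higher at 7 and 30 dpi and ITGB1 at 30 dpi. ITGAM, the alpha chain of the related receptor for complement-coated particles, was not called at any time, with 451 CPM in intact lumbar cord and 542, 424, 421 and 310.5 CPM after injury. Of the 6 genes assessed on this list, 2, 1, 3 and 1 were called higher and 0 lower, with list medians of 0.58, 0.22, 0.75 and 0.70.

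Of 10 other scavenger receptors assessed, 2, 1, 2 and 3 were called higher and 2, 2, 3 and 3 lower, with medians of 0.02, -0.16, -0.18 and 0.12. CD68, a lysosomal scavenger receptor of macrophages, rose at all 4 times from 4.23 to 14.7 to 20.9 CPM. COLEC12, a scavenger receptor with a collagen-like domain, rose from 0.819 CPM in intact lumbar cord (6.72 in thoracic cord) to 16.4 at 7 dpi, 100.2 at 30 dpi and 68.4 at 6 mpi, and was at 4.29 at 14 dpi, inside the intact range. CD163, the haemoglobin scavenger receptor, fell at all 4 times, from 809 CPM in intact lumbar cord to 109, 284, 149 and 73.2 CPM (log2 -2.88, -1.51, -2.43 and -3.45). CD163 is also a marker of perivascular macrophages. The 6 markers of those cells summed to 1042 to 1757 CPM in intact microglia-like nuclei and to 547, 668, 420.0 and 234 CPM after injury, all 6 detected in every library. Leaving out the nuclei with UMIs of at least 2 of these markers left 2086, 2706, 2450 and 2128 microglia-like nuclei after injury in time order. The full numbers were 3469, 4605, 3856 and 2307. MRC1 and CD163 were also leading genes of cluster 0, which held most intact microglia-like nuclei, so these markers do not single out perivascular macrophages. In the nuclei left, MSR1 and ITGAX were called higher at all 4 times. Their log2 ratios in time order, without the added 1, were 1.33, 1.40, 3.07 and 2.08 for MSR1 and 2.56, 2.12, 3.63 and 3.29 for ITGAX. CLEC7A at 6 mpi was then at 0.00, also without the added 1.

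On the list of TREM2 and TYROBP signalling, TREM1, another receptor that uses TYROBP, rose from 1.36 CPM in intact lumbar cord to 5.88, 29.8 and 58.3 CPM at 14 and 30 dpi and 6 mpi. INPP5D, a phosphatase that restrains this signalling, fell by 1.12 at 6 mpi, where it was called lower, and was at -0.15, -0.24 and -0.61 before. The kinase SYK and the phospholipase PLCG2, which act below both TYROBP and CLEC7A, were called at no time. Of the 7 genes assessed on that list, 0, 1, 1 and 1 were called higher and 0, 0, 0 and 1 lower.

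LGALS3 (galectin-3), which can bind MERTK, rose at all 4 times from 5.46 CPM to 22.6, 59.9, 148 and 260.5 CPM, whereas the ligands GAS6 and PROS1 were called at no time. It was the only call among the 3 genes assessed on the TAM list. TYRO3, the remaining receptor of the TAM family, was at most 1.26 CPM in any library, under the level filter. The C-type lectin list held no higher call among 6 genes and 0, 1, 0 and 3 lower calls. CLEC6A and CLEC4A, lectins of the same family, were called lower at 6 mpi (log2 -2.13 and -1.20), as was CLEC12A (-2.35), in the library in which CLEC7A was lowest.

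Of 14 genes assessed on the list of engulfment machinery and other phagocytic receptors, 2, 1, 1 and 1 were called higher and 1, 1, 0 and 2 lower. FCER1G, the adaptor of Fc receptors, rose at 7 dpi from 12.97 to 29.03 CPM. CD14, the co-receptor for lipopolysaccharide, fell at 7 dpi, 14 dpi and 6 mpi, from 55.1 CPM to 24.6, 8.05 and 12.8 CPM. TLR2, which had been among the genes most like OLR1, was called higher at 14 and 30 dpi (log2 1.51 and 1.24). On the list of inhibitory receptors, 1, 0, 1 and 1 of 5 genes were called higher, in each case LILRB4, from 1.64 CPM to 4.28, 8.80 and 15.4 CPM at 7 dpi, 30 dpi and 6 mpi.

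Markers of other cell types in the microglia-like nuclei moved with some of these results. The endothelial list summed to 803 to 849 CPM in the intact libraries and to 1522 at 7 dpi, of which VWF made up 1389, whereas CDH5 was at 0 at 7 dpi and CLDN5 and ERG at 0.256 each. At 14 dpi, 30 dpi and 6 mpi the sum was 830.3 to 858. PECAM1, a junction protein shared by endothelial and myeloid cells, went from 16.2 CPM in intact lumbar cord to 55.4, 45.1, 56.7 and 49.3 CPM in time order. FLT1, a receptor for vascular growth factors, went from 15.2 to 77.1, 44.5, 83.2 and 21.5 CPM. The 6 blood monocyte and neutrophil markers summed to 25.3 to 34.4 CPM in intact cord and to 34.8, 28.1, 42.0 and 13.3 CPM after injury, with S100A8 at 0 at 7, 14 and 30 dpi and FCN1 at 0 at 14 dpi, 30 dpi and 6 mpi. The B cell list of 4 genes summed to 3.003 to 5.33 CPM in intact cord and to 6.14, 2.65, 4.86 and 15.8 CPM after injury, with CD79B at 0 at 6 mpi. The astrocyte list summed to 717 to 1029 CPM in intact cord and 462 to 979 after injury. Their part in the results was not tested.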

How the data were processed

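Nuclei were profiled on the 10x Chromium v3 platform, and the authors aligned the reads to Mmul_10 with Cell Ranger 6.0.0 and deposited 1 matrix of whole UMI counts per library, without normalisation. The annotation release is not given in the sources used here. No barcode held under 500 UMIs, the lowest being 500 to 504 per library. The labels and the study's methods name different sequencers.

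Identifiers with 1 symbol were merged by adding their UMIs (35432 identifiers, 29011 symbols). Barcodes with more than 500 genes, more than 1000 UMIs, under 10% mitochondrial and under 5% hemoglobin UMIs were kept, which removed 2248. The 5% of nuclei with the highest doublet scores (scanpy 1.11.5) in each library, 3354, were left out. On log values scaled to 10000 UMIs per nucleus, 2000 variable genes, other than the members and lists, gave 30 principal components and 41 Leiden clusters (leidenalg 0.10.2, 20 neighbours, resolution 1). Libraries were not integrated.

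A cluster took the class with the highest score, the mean, over its markers, of the level in that cluster divided by the maximum over clusters (with a floor of 50 CPM), given at least 3 markers in 10% of its nuclei. Clusters led by genes of another class, mixed, or of low UMI counts stayed unnamed (4 clusters, 1431 nuclei). The thresholds of this rule were set after clusters of these data had been seen, and an earlier form, which left most microglia-like nuclei at 7 dpi and 6 mpi unnamed, is an alternative. The members, lists and markers were chosen with earlier results of these data known.

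UMIs were summed per class and library, with exact Poisson intervals for CPM, exact conditional binomial intervals for ratios and exact Clopper-Pearson intervals for shares, at 95% (scipy 1.17.1, numpy 2.4.6, Python 3.11.15). Classes under 50 nuclei in a library were not used for ratios. Since each group is 1 library, groups were not tested and no p-value is given. The 3 intact segments give a range between segments of 1 animal and no error between animals. The intact lumbar reference is shared by the 4 comparisons, which are not independent. Free RNA was not subtracted. The text names the 10 members, per list the gene with the steadiest rise and fall (by the smallest absolute log2 ratio over the 4 injured libraries, among genes over the level filter with 1 direction in all 4), and 3 genes most like a member. Other list genes, named as such in the text, were chosen after their values were seen. The code for the calls was run on simulated counts with planted changes larger than 2-fold and no variation between animals. That run checks the code only and cannot show how reliable the calls are with 1 library per group. Alternatives were another reference, normalisation, level filter, doublet, naming, clustering, free RNA, depth and macrophage setting. Promoter sequences are not reported here.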

Additional observations from a re-analysis of the deposited data

Results flagged for a closer look

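In microglia-like nuclei 2 genes stood on opposite sides of the intact range at different times after injury. SCARB1 lay below it at 7 dpi (log2 ratio to intact lumbar cord -0.12) and above it at 30 dpi (0.60) and 6 mpi (0.67). CLEC7A lay above it at 14 dpi (1.40) and 30 dpi (1.60) and below it at 6 mpi (-0.15). The differences between times were not tested, because each time rests on 1 library.

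The log2 ratios of TYROBP had opposite signs in 2 classes. The ratio to intact lumbar cord was -0.10, -0.53, -0.089 and -0.025 in microglia-like nuclei at 7, 14 and 30 dpi and 6 mpi, and 2.31, 1.93, 2.30 and 2.83 in astrocyte-like nuclei. The astrocyte-like values rest on 6 UMIs in intact lumbar cord and on 3, 5, 6 and 4 UMIs after injury, and TYROBP was under the level filter in that class. In microglia-like nuclei it was inside the intact range in 3 of the 4 injured libraries. In astrocyte-like nuclei it lay above the range of the 8 microglia markers in 2 of 7 libraries, both intact, while the median of those markers there was 0.456% of their microglia-like level in intact lumbar cord and 2.12% to 6.93% after injury. The difference between the classes was not tested.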

How the results depend on the processing

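The members called higher at 30 dpi were 3, and 5 with median-of-ratios size factors (OLR1 and TREM2 added). OLR1 was also added there with the mean of the 3 intact libraries as reference, with thinned sums and without cluster 12, and TREM2 with each nucleus named alone and without nuclei with perivascular macrophage markers. At 6 mpi they were 2, with TREM2 added for thinned sums and under the first naming rule. At 14 dpi they were 3, and CLEC7A was replaced by OLR1 with the mean of the 3 intact libraries as reference, and MSR1 was lost with each nucleus named alone, with thinned sums and without cluster 12. At 7 dpi they were 2, and 1 (ITGAX, with MSR1 lost) both when each nucleus was named alone and when nuclei were thinned before summing. Pathway genes called higher at 7 dpi were 8, and 5 with each nucleus named alone and 4 under the first naming rule, and at 14 dpi they were 5, and 9 without a level filter. Pathway genes called lower were 3 at 7 dpi (1 with the mean of the 3 intact libraries as reference, 6 under the first naming rule), 4 at 14 dpi (2 without nuclei with perivascular macrophage markers), 3 at 30 dpi (6 without a level filter) and 9 at 6 mpi (5 under the first naming rule). The cause of these differences was not tested. Of the 40 log2 ratios of members, 31 kept their sign under every alternative and none that was called higher changed sign. The ratio of SCARB1 at 6 mpi was -0.26 under the first naming rule, which gave 1117 microglia-like nuclei there in place of 2307 (and 651 in place of 3469 at 7 dpi), those of MSR1 and ITGAX at 6 mpi were 1.05 and 2.36 under it, and that of CLEC7A at 6 mpi ran from -0.74 to 0.00. With median-of-ratios size factors the median of all genes at 6 mpi was -0.03 instead of 0.18, and the ratio of AXL was -0.25. CD36 has no value for thinned sums, since no UMI was left in intact lumbar cord. No paired analysis was possible because each group holds 1 library, and for the same reason no replicate could be left out. Depth limits CD36 most, whose reference rests on 2 UMIs.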

Other observations

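A cluster of 163 nuclei that stayed unnamed also carried several of the receptors. Its 10 leading genes were FCRL1, FN1, KMO, FCGR3, CFD, S100A4, IGHM, FGR, MS4A1 and PILRA, of which FCRL1, IGHM and MS4A1 are known from B cells. It came from all 7 libraries and scored highest for microglia/macrophages. It had no name because PECAM1, a marker of the endothelial class, was among its leading genes over clusters of other classes. B cells were not a class of the naming rule, and the earlier form of that rule named this cluster microglia/macrophage. ITGAX was at 778 CPM, OLR1 at 317, CLEC7A at 287 and TYROBP at 132 in it, whereas MSR1 was at 78.8, MERTK at 58.3 and AXL at 17.3 CPM. The TAM kinases were thus at 17.3 and 58.3 CPM in nuclei in which ITGAX was above its level in microglia-like nuclei of intact cord.

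CD36 in ependymal-like nuclei, the cells that line the central canal, was found in 2 of the 3 intact segments, with 13 UMIs in 109 nuclei of thoracic cord (18.1 CPM), 10 UMIs in 319 nuclei of lumbar cord (6.73 CPM) and 0 in 64 nuclei of cervical cord. In the injured libraries these nuclei were 6 to 48 per library and held 0 to 4 CD36 UMIs.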
